A study of Arabidopsis thaliana with 4 samples.

Results

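The genes described here are COR15A (AT2G42540), COR15B (AT2G42530), COR47 (AT1G20440) and AT4G30650, 4 cold-regulated or cold-related genes of Arabidopsis thaliana chosen by symbol or locus from 13286 genes with a named probe set. Each was read by 1 probe set, of 22810 on the array, and all 4 passed the filter on dim signals (a mean signal of at least 100). RNA came from the rosette leaves of plants 3 weeks old, kept in 16 h of light and 8 h of dark, and the labels name no cold treatment. Wild-type Col-0 plants were compared with AAF-OX plants, which overexpress AAF in the Col-0 background, with 2 arrays per genotype. The series text speaks of 2 independent sets of arrays, so the Col-0 and AAF-OX arrays with replicate number 1 are called pair 1 or set 1 here, and those with number 2 pair 2 or set 2. The promoter of the transgene, the number of independent lines and the number of plants per sample are not given in the sources used here.

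When Arabidopsis is moved to low temperature, CBF transcription factors are made within hours and bind the C-repeat element in the promoters of a large set of target genes, among them the COR genes. COR15A and COR15B encode small hydrophilic proteins of the chloroplast stroma that protect membranes during freezing. COR47 encodes an acidic dehydrin, one of the proteins that stay soluble and protect other molecules when cells lose water. AT4G30650 belongs to the RCI2 family of very small hydrophobic membrane proteins, several of which are induced by low temperature and salt. Several COR genes also respond to abscisic acid and drought, and their level in warm-grown leaves varies over the day under control of the circadian clock.

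On the scale of log2(signal + 50), COR15A and COR15B were lower in AAF-OX than in Col-0 by -1.10 and -0.84, and AT4G30650 was lower by -0.73, each in both pairs. COR47 had a smaller difference of -0.19. None of the 4 passed the planned test on genotype alone, which called no probe set, not even that of the overexpressed AAF. COR15A, COR15B and AT4G30650 passed with the sets as a block. The 4 genes also differed between the sets, from 0.79 for AT4G30650 to 2.50 for COR15B, all higher in set 2. For AT4G30650 the set difference was close in size to the genotype difference, and for the other genes it was larger. The plot of signals by array shows both differences for each gene.

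**Figure D1:**
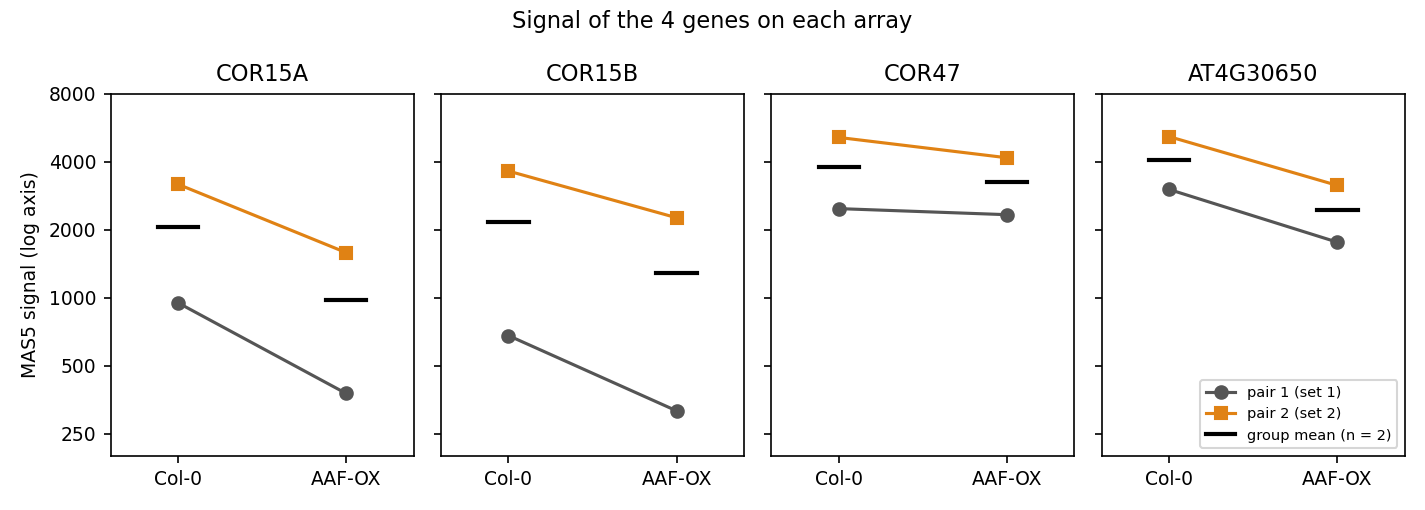
Signal on each of the 4 arrays (log axis) for COR15A, COR15B, COR47 and AT4G30650; points joined by a line are the Col-0 and AAF-OX arrays of 1 pair, and black bars are group means (n = 2). In each panel the AAF-OX point lies below the Col-0 point of its pair, and both points of pair 2 lie above both points of pair 1.

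COR15A had a signal of 949.1 in the Col-0 array and 376.7 in the AAF-OX array of pair 1. In pair 2 the signals were 3174 and 1582. AAF-OX was thus lower within each pair, but the AAF-OX array of pair 2 was above the Col-0 array of pair 1, so the groups overlap. Col-0 averaged 2062 ± 1573 and AAF-OX 979.3 ± 852.2 (SD, n = 2). The difference was -1.23 in pair 1 and -0.98 in pair 2. The mean difference of -1.10 is 2.15-fold lower in AAF-OX on the scale of signal plus 50.

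COR15B, the neighbouring gene of the same kind, had 679.7 in Col-0 and 315.6 in AAF-OX in pair 1. In pair 2 it had 3631 in Col-0 and 2256 in AAF-OX. It too was lower in AAF-OX within each pair, with groups that overlap because both arrays of set 2 were far above those of set 1. The group means were 2156 ± 2087 and 1286 ± 1372 (SD, n = 2). The difference was -0.997 in pair 1 and -0.67 in pair 2, on average 1.78-fold lower. COR15A and COR15B are close relatives, and whether their probes bind only their own transcript was not tested.

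AT4G30650, the RCI2 family member, went from 3009.6 in Col-0 to 1759 in AAF-OX within pair 1 and from 5156 to 3136 within pair 2. The overlap of the groups was narrow, with the higher AAF-OX array just above the lower Col-0 array. Col-0 averaged 4083 ± 1518 and AAF-OX 2447 ± 973.8 (SD, n = 2). Its differences of -0.76 in pair 1 and -0.71 in pair 2 were the closest to each other among the 4 genes, and their mean is 1.66-fold lower.

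COR47, the dehydrin, read 2477 in Col-0 against 2328 in AAF-OX for pair 1, and 5113 against 4157 for pair 2. Its group means were 3795.0 ± 1864 and 3243 ± 1293 (SD, n = 2). AAF-OX was lower in both pairs, but by only -0.09 in pair 1 and -0.30 in pair 2.

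The differences between genotypes were tested with limma across all 13592 probe sets that passed the filter. In the planned fit, with genotype alone, the difference between sets stays in the error, and none of the 4 genes passed (0.0% of probe sets called, and 117 at an unadjusted p under 0.05). There limma's adjusted p was 0.9999 for all 4 genes, with SEs of 0.88 for COR15A, 1.19 for COR15B, 0.48 for COR47 and 0.42 for AT4G30650. With the sets as a block in limma, 1.55% of all probe sets were called, with 1.34% above Col-0 and 0.206% below it. Among the latter were 3 of the 4 genes. COR15A differed by -1.10 ± 0.12 (SE; limma's adjusted p = 0.00118), COR15B by -0.84 ± 0.13 (limma's adjusted p = 0.00865) and AT4G30650 by -0.73 ± 0.11 (limma's adjusted p = 0.006). For COR47 the blocked fit in limma gave -0.19 ± 0.11 (adjusted p = 0.602), with a 95% interval of -0.43 to 0.05.

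The genes were taken up with these results already known, so their count of 3 in 4 does not show that cold genes as a group stand out from the 0.206%. Nothing in the labels tells whether each set had its own plants, and the p-values here reflect array-to-array spread that could be technical. In whole leaves, fewer cells with a transcript and less transcript per cell cannot be told apart.

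Set against all other probe sets, COR15A and COR15B were near the lower end of the differences in both pairs. A difference as low as that of COR15A was held by 0.0809% of the tested probe sets in pair 1 and 0.155% in pair 2. For COR15B the shares were 0.243% and 0.956%, and for AT4G30650 they were 0.692% and 0.787%. COR47 lay in the bulk of the distribution, at 36.7% in pair 1 and 12.5% in pair 2. In the mean over both pairs COR15A ranked 5th lowest of 13592, COR15B 14th, AT4G30650 26th and COR47 2117th. A difference below 0 in both pairs, which all 4 genes had, is common in this comparison and was found in 31.3% of probe sets. A difference of -0.5 or lower in both pairs, held by COR15A, COR15B and AT4G30650, was found in 0.316%. This cut was not part of the plan, and the share depends on where it is placed. Both AAF-OX arrays lay below both Col-0 arrays in 10.9% of probe sets and in 0 of the 4 genes.

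**Figure D2:**
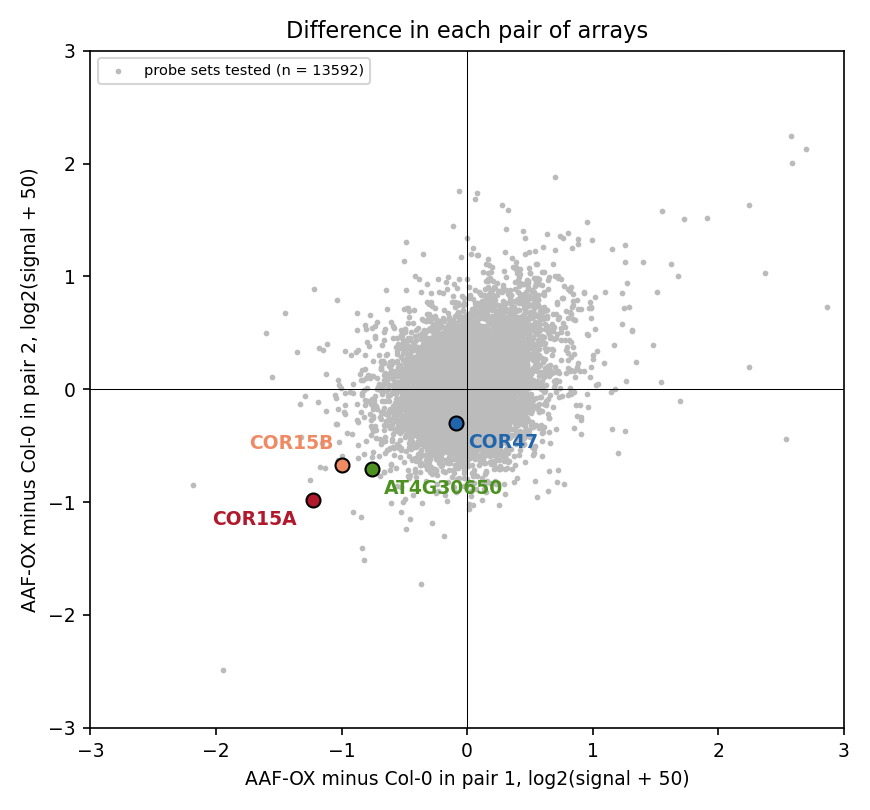
Difference between AAF-OX and Col-0 in pair 1 (horizontal axis) and pair 2 (vertical axis), both as log2(signal + 50), for the tested probe sets in grey and the 4 genes in colour; 6 probe sets lie outside the axes. COR15A, COR15B and AT4G30650 sit at the lower left edge of the cloud and COR47 inside it.

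AAF, known from work on leaf senescence and taken here as AT1G66330 from knowledge of the study, had 759.9 and 1337 in the Col-0 arrays and 7442 and 7706 in the AAF-OX arrays, so each array matches its label. The leaf marker RCA, the activase of the carbon-fixing enzyme, was measured at 23017 to 28152 on the 4 arrays, and was the one of 8 leaf markers with a named probe set. None of 6 flower markers had one. Of 6 root markers, PYK10 and NAI2 were named, both also made in shoots, and their summed signal was 1415 and 2286 in Col-0 and 839.4 and 1719 in AAF-OX. They were lower in AAF-OX by -0.54 and -0.58 and did not pass with the block (limma's adjusted p = 0.0679 and 0.108), though PYK10 passed in 2 of the 8 fits with the block (limma's adjusted p = 0.0436 with quantile normalization and 0.0478 with a pseudocount of 100). Their part in the differences of the COR genes was not tested. The median signal per array was 169 to 180.2. Over all probe sets, log2 signals correlated at 0.985 between the 2 arrays of each pair and at 0.95 to 0.956 between arrays of different sets, as a description over probe sets of these arrays.

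Between the sets, COR15B had the widest difference of the 4 genes, 5.64-fold higher in set 2 on the scale of signal plus 50. The set difference was 2.33 within Col-0 and 2.66 within AAF-OX (2.50 ± 0.13, SE; limma's adjusted p = 6.28e-08). COR15A had 1.69 within Col-0 and 1.94 within AAF-OX, and 1.81 ± 0.12 over both (limma's adjusted p = 6.56e-07). COR47 had 1.03 and 0.82, and 0.93 ± 0.11 over both (limma's adjusted p = 4.5e-05), so for this dehydrin the set difference was well above that between genotypes. AT4G30650 had 0.77 and 0.82, and 0.79 ± 0.11 over both (limma's adjusted p = 0.00012). Of the 4 genes, AT4G30650 had the set difference closest in size to its genotype difference, and its call between sets was lost without the genotype term (limma's adjusted p = 0.0913).

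Differences between sets were widespread, with 39.4% of probe sets called in the fit with a genotype term and 17.3% called higher in set 2, where all 4 genes fall. Both set 2 arrays were above both set 1 arrays for all 4 genes, as for 29.8% of all probe sets. The order of the 4 arrays was the same for each gene, with AAF-OX of set 1 lowest, then Col-0 of set 1, AAF-OX of set 2 and Col-0 of set 2. Of all tested probe sets 9.68% had this order. Each of these levels is 1 array, so neighbours in the order have no spread of their own.

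Of 14 listed clock genes, 1 had a named probe set, GIGANTEA (GI), which peaks late in the day. GI was called between the sets, as were 39.4% of all probe sets, and did not pass between the genotypes. It had 111.6 in Col-0 and 93.8 in AAF-OX in set 1, against 1937 and 1522 in set 2 (3.54 between sets, limma's adjusted p = 1.05e-08). Between genotypes GI had -0.25 with the block (limma's adjusted p = 0.577). The time of sampling is not given in the sources used here, and its part in the set difference of the COR genes was not tested.

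Among genes of the CBF regulon, 8 of 18 listed genes had a named probe set, and all 8 were tested. With the sets as a block, 2 of them, COR15A and COR15B, were called lower, 0 were called higher and 6 did not pass, where 0.206% of all probe sets were called lower and 1.34% higher. The median difference of the 8 was -0.26, where that of all tested probe sets was -0.02. The 8 include COR15A, COR15B and COR47, taken up with their results known, so neither calls nor median describe the regulon apart from them. Outside these members the differences were -0.32 for LTI30, -0.43 for COR27, -0.08 for COR28, -0.10 for DI21 and 0.79 for AT5G62210. LTI30, another cold-induced dehydrin, read 161.1 against 157.0 for pair 1 and 513.4 against 318.8 for pair 2, Col-0 first. Its difference of -0.32 came almost wholly from pair 2, with -0.03 in pair 1 and -0.61 in pair 2 (limma with the block, adjusted p = 0.587).

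COR27, a cold-induced gene of the evening part of the clock, was high in set 1, at 1130.4 in Col-0 and 1232 in AAF-OX. It was low in set 2, at 230.7 and 91.8, the opposite of the COR15 genes. Its set difference was -2.62 (limma's adjusted p = 2.34e-06) and its genotype difference -0.43 (limma's adjusted p = 0.502). AT5G62210 had a signal of only 4.7 in Col-0 of set 1, against 126.8, 287.0 and 263.1 on the other 3 arrays, and its difference of 0.79 did not pass (limma with the block, adjusted p = 0.374) and was 2.18 with a pseudocount of 1. The remaining 2 genes, named after their values were seen, were COR28 with -0.08 and DI21, a drought-induced gene, with -0.10. Between the sets, 5 of the 8 were called higher in set 2 and 1, COR27, lower, where 17.3% of all probe sets were called higher and 39.4% in either direction. The members COR15A, COR15B and COR47 are among the 5.

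In the RCI2 family, 5 of 8 genes had a named probe set, 2 of these were under the filter, and 3 were tested. AT4G30650 was called lower with the block and 2 did not pass, where 0.206% of all probe sets were called lower. The median of the 3 was -0.10, where that of all tested probe sets was -0.02. AT4G30650 was taken up with its result known, so its call does not describe the family apart from it. AT4G30660 lies next to AT4G30650 with 0 annotated genes between them in TAIR10.1. Its signal was 1903 against 1707 for pair 1 and 4709.8 against 4529 for pair 2, Col-0 first. Between genotypes it differed by -0.10 ± 0.11 (SE; limma with the block, adjusted p = 0.832), with a 95% interval of -0.34 to 0.13 that does not reach the -0.73 of its neighbour. Between sets it was 1.33 higher in set 2 (limma's adjusted p = 2.31e-06). The third gene, AT2G24040, had -0.07 between genotypes (limma with the block, adjusted p = 0.937). The dim genes were AT2G38905, at 7.4 to 47.9, and AT1G57550, at 16.1 to 64.0.

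The list of dehydrins and other late embryogenesis abundant proteins, which holds COR15A, COR15B, COR47 and LTI30 as well, had 5 tested genes of 17. With the block 2 were called lower, the COR15 genes, and 3 did not pass, where 0.206% of all probe sets were called lower. The median of the 5 was -0.32, where that of all tested probe sets was -0.02. COR15A, COR15B and COR47 were taken up with their results known, so neither calls nor median describe the list apart from them. All 5 were called higher in set 2, as were 17.3% of all probe sets. The fifth gene was HIRD11, a small dehydrin, at 12552 against 10359 for pair 1 and 18272 against 17513 for pair 2, Col-0 first. It had -0.17 between genotypes (limma with the block, adjusted p = 0.604) and 0.65 between sets (limma's adjusted p = 0.000261). The other 5 named members were under the filter, with signals of 3.5 to 66.7, among them LEA4-5 and AT4G39130.

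Of 14 listed regulators of the cold response, 1 had a named probe set, the zinc finger repressor gene STZ. Its difference was opposite in sign to that of the COR15 genes, from 273.1 to 504.7 within pair 1 and 2736 to 3720 within pair 2. It was called higher in AAF-OX with the block (0.61, limma's adjusted p = 0.044), a call lost in 4 of the 8 fits with the block. Like the COR15 genes it was higher in set 2 (2.94, limma's adjusted p = 2.33e-08). Whether STZ has a part in the differences of the COR genes was not tested. The CBF genes, ICE1 and the other regulators had no named probe set here and were not analysed, nor were the 18 genes of the abscisic acid and drought list.

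**Figure D3:**
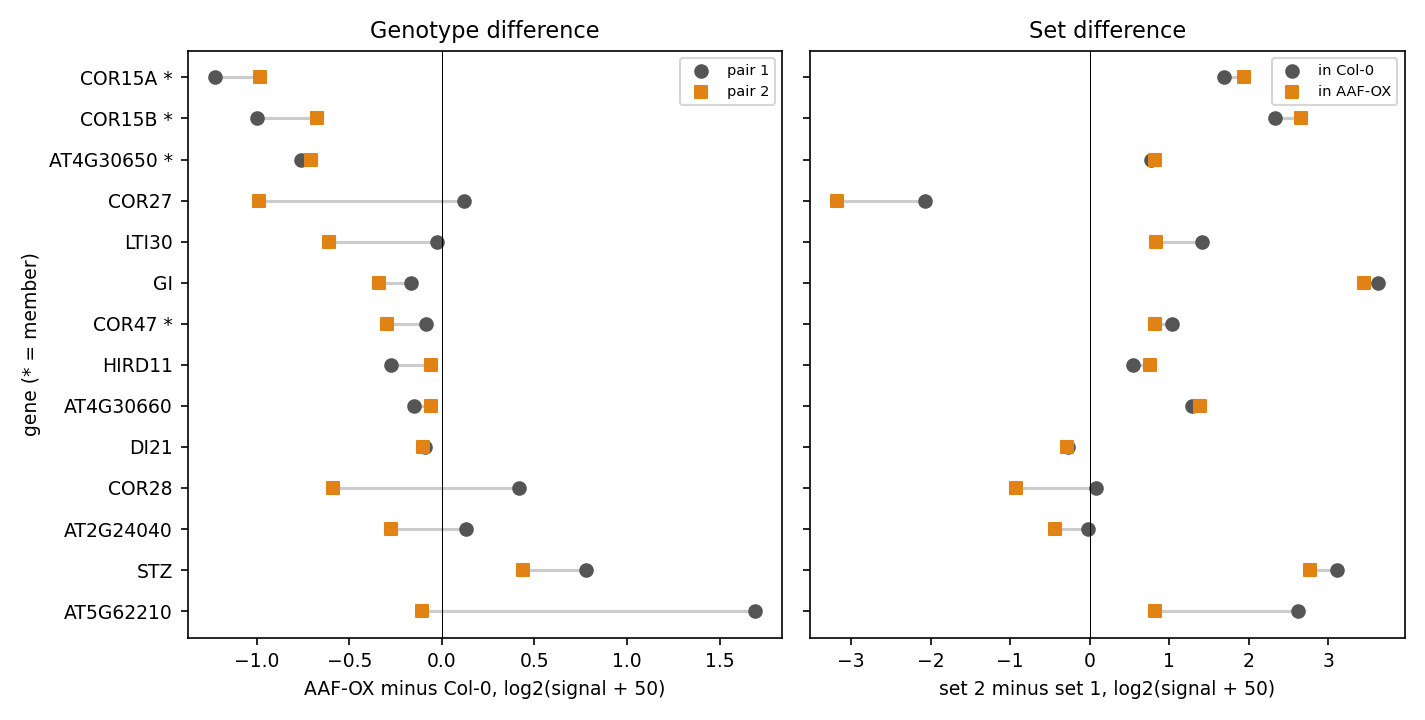
Differences of 14 tested genes of the CBF regulon, cold regulator, RCI2, dehydrin and clock lists, as log2(signal + 50): AAF-OX minus Col-0 in each pair (left) and set 2 minus set 1 in each genotype (right), with members marked by an asterisk. COR15A, COR15B and AT4G30650 have the lowest mean genotype differences. In the mean set difference COR27 lies on the opposite side of 0 from the 4 members, as do COR28, DI21 and AT2G24040 by less.

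COR15A and COR15B are adjacent on chromosome 2, with 0 annotated genes between them in TAIR10.1. Their 10 nearest measured and named neighbours, 5 on each side, had a median genotype difference of -0.05 and a range of -0.43 to 0.16, and 0 were called with the block. Neither gene's difference falls in that range. The 10 neighbours of COR47 on chromosome 1 had a median of 0.01 and a range of -0.17 to 0.31. COR47, at -0.19, was just below that range, though the next gene out, AT1G20770, had -0.23. The 10 neighbours of AT4G30650 on chromosome 4 had a median of -0.04 and a range of -0.20 to 0.17, which leaves AT4G30650 well outside. Between sets, the neighbours of the COR15 genes ranged from -0.50 to 0.35 and those of COR47 from -0.53 to 0.70, below the set differences of these members. For COR47 this depends on the window, since AT1G20823, within 10 genes of it, had 1.54. The neighbours of AT4G30650 ranged from -1.36 to 1.33, which contains its own 0.79. The upper end is AT4G30660 of the same family, and the next highest neighbour, AT4G30800, had 0.60.

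**Figure D4:**
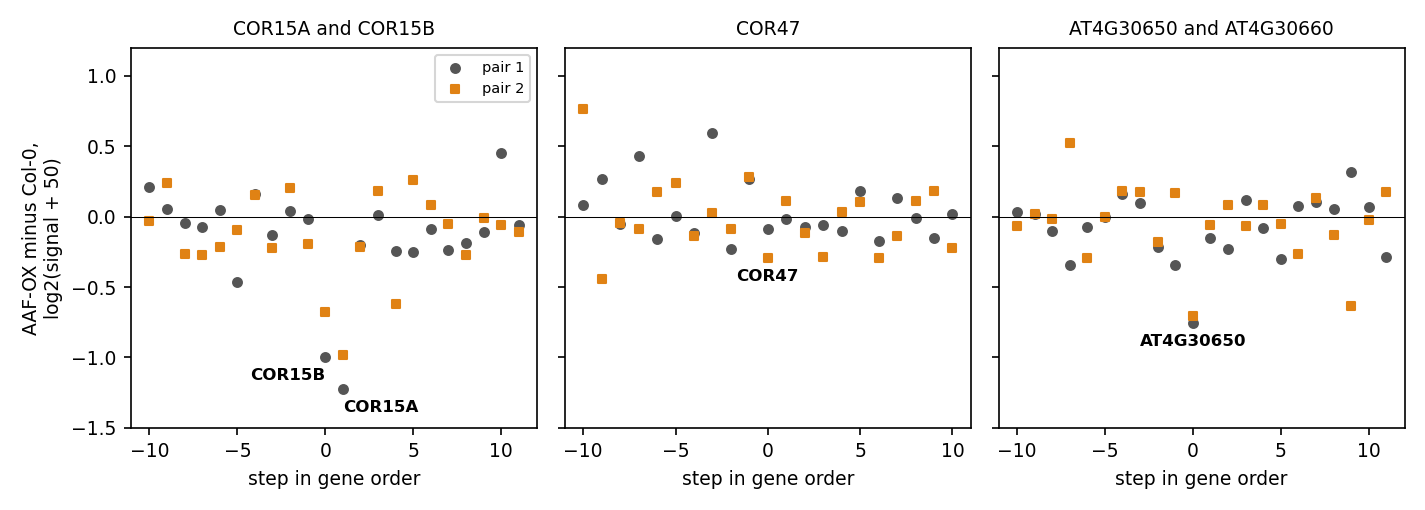
Difference between AAF-OX and Col-0 as log2(signal + 50) in each pair for 10 measured and named genes on each side of COR15B and COR15A, of COR47 and of AT4G30650 with AT4G30660 (step 1 in the last panel), by step in gene order. The members COR15A, COR15B and AT4G30650 lie below most of the genes around them in both pairs, and COR47 lies among its neighbours.

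The patterns of the genes over the 4 arrays were compared by the root mean square difference of log2 values, each centred on its own mean, over 7278 other tested probe sets with a locus. For COR15A and COR15B, 0 probe sets were within 0.2 of either. The values were not scaled, so a count within a fixed distance also depends on the size of a gene's differences. From COR15B, COR15A ranked 2nd at 0.368, after AT5G48490 (0.258) and before AT3G46370 (0.369). From COR15A the nearest were AT5G28630 (0.301), AT1G51090 (0.308) and AT4G02850 (0.326), with COR15B 5th. AT5G48490 shared the rise between sets (2.33) but had -0.41 between genotypes and did not pass (limma with the block, adjusted p = 0.331).

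COR47, with smaller differences than the COR15 genes, had 366 probe sets within 0.2, and AT4G22190 (0.0143), AT4G14230 (0.0176) and SFP2 (0.0254) were nearest. AT4G30650 had 25 probe sets within 0.2, led by NANA (0.0976), AT4G24175 (0.136) and AT4G29020 (0.141). Of these, AT4G29020 was also called lower with the block (-0.56, limma's adjusted p = 0.0332). With 4 arrays, 2 differences make up most of such a pattern, and likeness here is a description of these arrays.

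The calls of COR15A, COR15B and AT4G30650 rest on the block. COR15A passed in all 8 fits run with the block, with adjusted p from 0.000335 to 0.0475 in limma. COR15B and AT4G30650 passed in 6 of 8 and lost the call without the filter on dim probe sets (limma's adjusted p = 0.102 and 0.0775) and when the variance was not fitted as a trend on intensity (limma's adjusted p = 0.109 and 0.126). Their differences in these fits stayed at -0.84 and -0.73. COR47 passed in 0 of 8. In the planned fit the difference of COR15B turned to 0.49 without AAF-OX replicate 1 and to 0.33 without Col-0 replicate 2, and that of COR47 to 0.22 and 0.32, since a set is then unevenly represented.

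**Figure D5:**
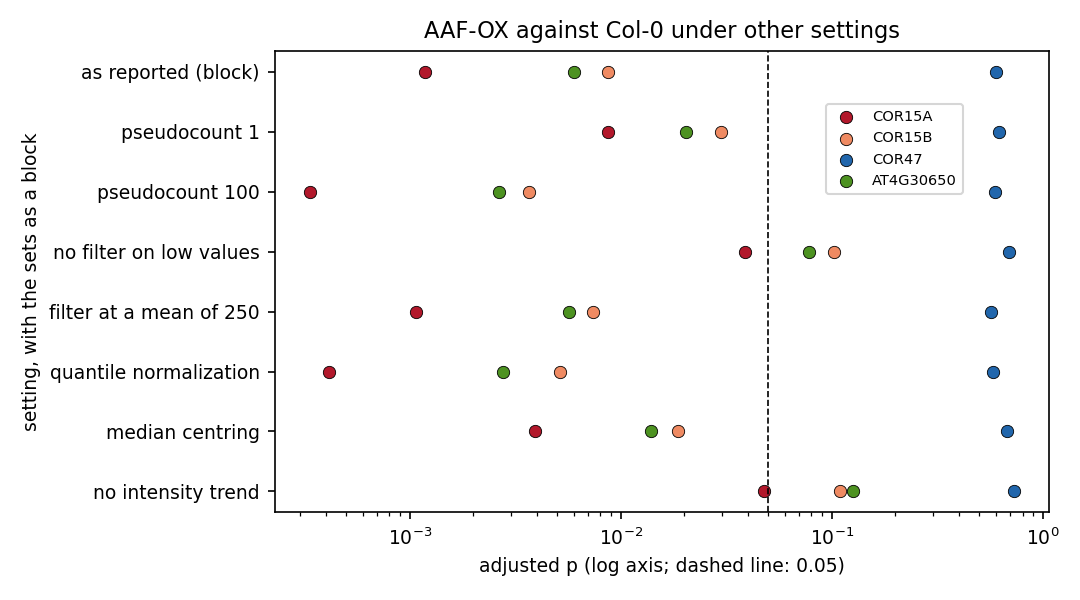
Limma's adjusted p (log axis) of each of the 4 genes for AAF-OX against Col-0 in 8 fits with the sets as a block; the dashed line is the threshold of 0.05. COR15A lies left of the line in all 8 settings, COR15B and AT4G30650 in 6, and COR47 in 0.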

How the data were processed

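Per the labels' protocols, the authors extracted total RNA from rosette leaves and ran biotin-labelled samples on Affymetrix arrays. The deposited intensity values are linear MAS5 signals, a name taken from the submitters' processing notes (its version is not given in the sources used here), and their 2%-trimmed mean was 500.04 to 500.05 on each array. Of 22810 probe sets, 64 controls were left out and 9154 fell under a mean of 100 over the 4 arrays, which left 13592 tested. Probe sets were named through the platform's gene table and the TAIR10.1 gene table (13436 with a locus). No sequences or coordinates are shown.

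Signals were analysed as log2(signal + 50), which understates changes of dim probe sets. The tests used limma 3.58.1 (R 4.3.3), two-sided, with eBayes and a trend of variance on intensity. P-values were adjusted by Benjamini-Hochberg over all probe sets tested, at a threshold of 0.05. The planned fit has genotype alone, and the paired fit has the sets as a block, which leaves 1 residual degree of freedom beside 10.7 from the prior. The series text names 2 sets, and that the replicate number marks the set is an assumption made here. Deviations of same-numbered arrays from their group means correlated at 0.856. The set contrast has a genotype term. The fits were also run on simulated data with independent noise and the same set difference in both genotypes. That run cannot show whether the calls on these arrays hold. With 2 arrays per genotype, their number limits the precision.

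The genes and lists were chosen with earlier results of these data known. Genes named were the 4 members, AAF, all tested genes of a list with at most 6, otherwise its called genes and the 2 others with the smallest unadjusted p in the blocked fit, and the 3 nearest patterns of each member. The alternatives tried were a pseudocount of 1 or of 100, dropping the filter or raising it to 250, median centring, quantile normalization, no trend on intensity, each of these also with the block, no genotype term, and each array left out.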

Additional observations from a re-analysis of the deposited data

Results flagged for a closer look

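In 4 genes of the cold lists the genotype difference had opposite signs in the 2 pairs, as log2(signal + 50) of AAF-OX minus Col-0. COR27 had 0.119 in pair 1 and -0.985 in pair 2. COR28 had 0.417 and -0.586. AT5G62210 had 1.69 and -0.106, with a Col-0 signal near 0 in pair 1. AT2G24040 of the RCI2 family had 0.132 and -0.276. With 1 array per genotype in each set, the difference between pairs was not tested.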

How the results depend on the processing

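Without the block, limma called 0 probe sets in all 7 other settings and with each array left out (56 to 608 at an unadjusted p under 0.05). The replicate block called 210, and with it the count was 76 with a pseudocount of 1, 276 with 100, 18 without the filter, 233 with a filter at 250, 286 with quantile normalization, 137 with median centring and 21 without the intensity trend; the cause was not tested. Under these same 7 settings the block gave COR15A -1.17, -1.05, -1.10, -1.10, -1.10, -1.09 and -1.10, all called. COR15B had -0.90, -0.79, -0.84, -0.81 and -0.82 and AT4G30650 had -0.75, -0.72, -0.73, -0.73 and -0.72 where called, against -0.84 and -0.73 with the block alone. The set difference of AT4G30650, 0.79, was not called without the genotype term. Set contrast counts were 3996 to 5469. With both sets needed for the genotype term, leaving out an array gave set differences without a test, 1.69 to 1.94 for COR15A, 2.33 to 2.66 for COR15B, 0.82 to 1.03 for COR47 and 0.77 to 0.82 for AT4G30650, and no count.

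Where the planned fit lacks 1 array, part of the set difference enters the genotype difference, and the lone array's group was given the spread of the other. The ranges were -2.07 to -0.14 for COR15A, -2.16 to 0.49 for COR15B, -0.71 to 0.32 for COR47 and -1.14 to -0.33 for AT4G30650. COR15B and COR47 turned positive without AAF-OX replicate 1 (0.49 and 0.22) and without Col-0 replicate 2 (0.33 and 0.32). Other genes that changed sign ranged from -1.03 to 0.39 (LTI30), -2.02 to 1.15 (COR27), -0.55 to 0.38 (COR28), -0.239 to 0.0445 (DI21), -0.52 to 2.11 (AT5G62210), -0.95 to 2.16 (STZ), -0.80 to 0.59 (AT4G30660), -0.29 to 0.14 (AT2G24040), -0.55 to 0.21 (HIRD11), -2.06 to 1.56 (GI), -0.208 to 0.0296 (RCA) and -1.15 to 0.0636 (PYK10). AT5G62210 was under the filter at 250 and has no value there. Signals under 50 made up 30.1% to 31.4% of each array.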
